A study of Mus musculus with 25 samples.

Results

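The 8 genes described here, Chil3, Retnla, Mrc1, Mgl2, Clec10a, Tmem26, Mamdc2 and Cdh1, are marker genes of alternatively activated macrophages, out of 24411 genes counted. They were chosen on their measured levels in these samples, over all 9 groups, so their differences between groups are given as a description, with no test. RNA-seq was carried out on 25 samples in 9 groups. The 21 samples of bone marrow-derived macrophages (BMDMs) came from C57BL/6 mice and were differentiated with M-CSF (25 ng/ml, 4 days), the growth factor that drives bone marrow cells to become macrophages. They form 7 groups of 3: control, cultured for 4 h by the label; IFN-γ (100 U/ml) with LPS (100 ng/ml) for 1, 4, 12 and 24 h, called IFN-LPS here; IL-4 (10 ng/ml) for 12 h; and IL-13 (10 ng/ml) for 12 h. The study calls the IFN-LPS cells primed with IFN-γ and then given LPS, and the length of priming was not given in the sources used here, so exposure to IFN-γ may be longer than the hours stated. The other 4 samples are RAW264.7, an established mouse macrophage cell line, with 2 of control cells and 2 given LPS (100 ng/ml) for 4 h. The study's methods call the samples independent RNA samples, but the sources used here do not tie them to animals, nor do they give the age or sex of the mice.

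Macrophages change their gene expression with the signals around them. IFN-γ and LPS drive classical activation, which serves the killing of microbes, whereas IL-4 and IL-13 drive alternative activation, which is known from parasite infection, allergy and tissue repair. IL-4 and IL-13 share the receptor chain IL-4Rα, through which the kinases of the JAK family activate the transcription factor STAT6. Chil3 (Ym1) and Retnla (Fizz1) encode secreted proteins, Mrc1 (CD206), Mgl2 (CD301b) and Clec10a (CD301a) encode lectins that bind sugars on microbes and on the body's own glycoproteins, and Cdh1 encodes the adhesion molecule E-cadherin. Tmem26 encodes a membrane protein and Mamdc2 a protein with MAM domains.

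Values are read counts on the strand of the gene and CPM, the same counts scaled by each library's total on genes other than Rn45s, a ribosomal precursor. A library held 2378639 to 3357300 counts on genes, and 1502618 to 2532496 of them were left without Rn45s, so that a level under 1 CPM rests on 1 or 2 counts. The share of Rn45s counts on the opposite strand split the BMDM libraries: it was 0.0386% to 0.122% in the control and at 1, 4 and 12 h of IFN-LPS, and 0.00603% to 0.0214% at 24 h and with IL-4 and IL-13. Effects of a cytokine, of this share and of the culture time (4 h against 12 h) cannot be told apart where a cytokine group is set against the control. The share also differs between 24 h of IFN-LPS and the control, and between the cytokine groups and 12 h of IFN-LPS. All 10 macrophage markers of a fixed list were counted in every BMDM group, and 9 of them in RAW264.7, where Mertk was at 0. Adgre1 was at 99.9 CPM in RAW264.7 control cells against 1064 CPM in control BMDMs. Cd14 (1583 against 315 CPM) and Fcgr1 (209 against 60.1 CPM) went the other way, and the rest of the list was lower in RAW264.7 control cells. With IL-4 and with IL-13, 3 of the 10 were past the cutoffs given below for lower. Fcgr1 was at 31.3 and 31.4 CPM, and Cd14 at 85.2 and 85.6 CPM. Of 8 epithelial markers, 5 were at 0 in every sample, Krt8 and Krt18 among them, and their summed level did not exceed 0.579 CPM in any library. In bulk samples, fewer cells that express a gene and less RNA of it per cell cannot be told apart.

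The promoters of these genes are described next. RefSeq promoter sequences (GRCm38.p6, the 250 bases before the start) were matched for 5 of the 8 members, not for Clec10a, Mamdc2 and Cdh1. They were searched on both strands for TTCNNNNGAA, a spacing to which STAT6 is known to bind, and for TTCNNNGAA, a spacing of STAT factors more widely. The other motifs were TTGCNNAA, a C/EBP type motif, and GAGGAA, an ETS type motif. The first was found in Retnla and Tmem26, against 5.85% of 32851 promoters of the same length. The second was found in Chil3, against 7.02%, and the C/EBP type motif in Retnla, against 9.56%. The ETS type motif, which 23.3% of promoters hold, was found in Mrc1, Mgl2 and Retnla. Neither STAT type motif was found in these 250 bases of Mrc1 or Mgl2, which says only that these letters are not in this window. A stretch of 100 bases is given around 1 STAT type match in each of Retnla, Tmem26 and Chil3, together with that of Chil4, the neighbour and closest relative of Chil3. None of the motifs searched is common to these 3 members: Retnla and Tmem26 hold TTCNNNNGAA, and Chil3 holds TTCNNNGAA. Capitals mark the matches to TTCNNNNGAA, TTCNNNGAA and TTGCNNAA, and positions count back from the RefSeq start.
Retnla, chr16:48842419-48842518, plus strand, bases -190 to -91: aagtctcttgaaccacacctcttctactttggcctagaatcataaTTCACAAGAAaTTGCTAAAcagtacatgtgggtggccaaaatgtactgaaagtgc
Tmem26, chr10:68723496-68723595, plus strand, bases -250 to -151: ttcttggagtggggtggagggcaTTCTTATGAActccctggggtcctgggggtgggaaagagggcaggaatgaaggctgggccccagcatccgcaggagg
Chil3, chr3:106167677-106167776, minus strand, bases -212 to -113: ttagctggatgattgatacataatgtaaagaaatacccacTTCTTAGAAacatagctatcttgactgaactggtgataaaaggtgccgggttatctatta
Chil4, chr3:106219620-106219719, minus strand, bases -240 to -141: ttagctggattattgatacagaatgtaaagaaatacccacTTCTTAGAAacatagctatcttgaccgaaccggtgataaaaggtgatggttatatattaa

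In Retnla, the STAT6 type match and the C/EBP type match lie 1 base apart. Tmem26 holds a second STAT6 type match at bases -41 to -32, TTCTCTGGAA, which lies downstream of the start given for the gene in GENCODE M21 (68723646), inside the annotated gene. The stretches of Chil3 and Chil4 agree at 86 of 100 bases, and the STAT type match is the same in both. These are matches of letters, and binding was not measured in these samples, so the spacing does not tell which STAT factor binds.

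Chil3, which encodes a chitinase-like secreted protein, had the widest range of the 8 genes. In the control it had 11, 6 and 11 counts, in IL-4 1273, 1311 and 1258 counts, and in IL-13 2384, 2736 and 2728 counts. In CPM the control samples ran from 3.58 to 6.54, IL-4 samples from 737 to 805 and IL-13 samples from 1531 to 1559. The 3 groups did not overlap, and the SD within the IL-13 group was 14.6 CPM for a mean of 1542. The fitted log2 fold change was 7.12 (SE 0.146) for IL-4 and 8.07 (SE 0.141) for IL-13 against the control, and 0.95 (SE 0.0781) for IL-13 against IL-4. Both comparisons with the control use the same 3 control samples. Chil3 was at 0 counts in all 4 RAW264.7 samples, 7.93-fold below control BMDMs when the RAW264.7 control group is set at the floor of 3 counts.

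Chil3 lies on chromosome 3 from 106147554 to 106167564 (minus strand, 11 exons, GENCODE M21, GRCm38) next to Chil4. Their transcripts are both 1539 bases long and 94.3% identical, and 75 of the 1439 windows of 101 bases in Chil3, the read length, occur in another gene's transcripts (Chil4 or Gm6522). Reads that could not be placed in 1 position were not counted, so Chil3 and Chil4 can be told apart over most of their length. Chil4 had 2 counts in the 3 IL-4 samples and 1 in the 3 IL-13 samples, against 3842 and 7848 of Chil3. No counts of Chil6, Chia1 or Chit1, other genes of the chitinase family, were found in any sample, and Chil1 had 5 in all.

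Mrc1, the mannose receptor, was counted in all 25 samples. Control BMDMs had 170, 156 and 145 counts, IL-4 samples 879, 854 and 773, and IL-13 samples 939, 1195 and 1257. The levels were 92.8 ± 8.34 CPM in the control, 508 ± 12.9 with IL-4 and 664 ± 54.3 with IL-13 (mean ± SD, n = 3), and the 3 groups did not overlap. The fitted log2 fold changes were 2.45 (SE 0.0982) for IL-4, 2.80 (SE 0.0975) for IL-13 and 0.35 (SE 0.0831) between them. Control cells thus already held Mrc1, unlike Chil3 and Tmem26, at a level well above the limit of detection. It lies on chromosome 2 from 14229392 to 14332057 (plus strand, 30 exons), and the gene of a small RNA, Mir511, lies within it.

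Tmem26 had 1, 5 and 12 counts in the control, 93, 105 and 70 with IL-4, and 175, 158 and 216 with IL-13. The levels were 3.52 ± 3.23 CPM in the control, 54.2 ± 9.61 with IL-4 and 108 ± 16.3 with IL-13 (mean ± SD, n = 3), and the groups did not overlap. The fitted log2 fold changes were 3.91 (SE 0.289), 4.86 (SE 0.254) and 0.95 (SE 0.149) for IL-4, IL-13 and IL-13 against IL-4. The SD of the control samples was nearly as large as their mean, and without replicate 3 of the control, the sample with 12 counts, the log2 fold changes against it were 4.87 for IL-4 and 5.83 for IL-13. All 4 RAW264.7 samples were at 0. The gene lies on chromosome 10 from 68723646 to 68782650 (plus strand, 6 exons).

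Mamdc2 had another order. It was highest in the control, with 265, 292 and 295 counts, lower with IL-4, with 213, 215 and 178, and lower again with IL-13, with 117, 139 and 168. In CPM the groups were 168 ± 8.90, 123 ± 8.58 and 83.0 ± 10.3 (mean ± SD, n = 3), and they did not overlap. The fitted log2 fold change was -0.45 (SE 0.106) for IL-4, -1.05 (SE 0.112) for IL-13 and -0.60 (SE 0.116) for IL-13 against IL-4. Against this control, its values therefore go against the label of an alternative activation marker: it is higher with IL-4 and IL-13 than with IFN-LPS, but not than in unstimulated cells. With IL-4, the group total was 237 times that at 12 h of IFN-LPS (exact 95% counting interval 80.8 to 1153, for counting error only). These groups lie on either side of the split in antisense Rn45s share, whose part was not tested. Mamdc2 lies on chromosome 19 from 23302609 to 23448442 (minus strand, 14 exons).

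**Figure D1:**
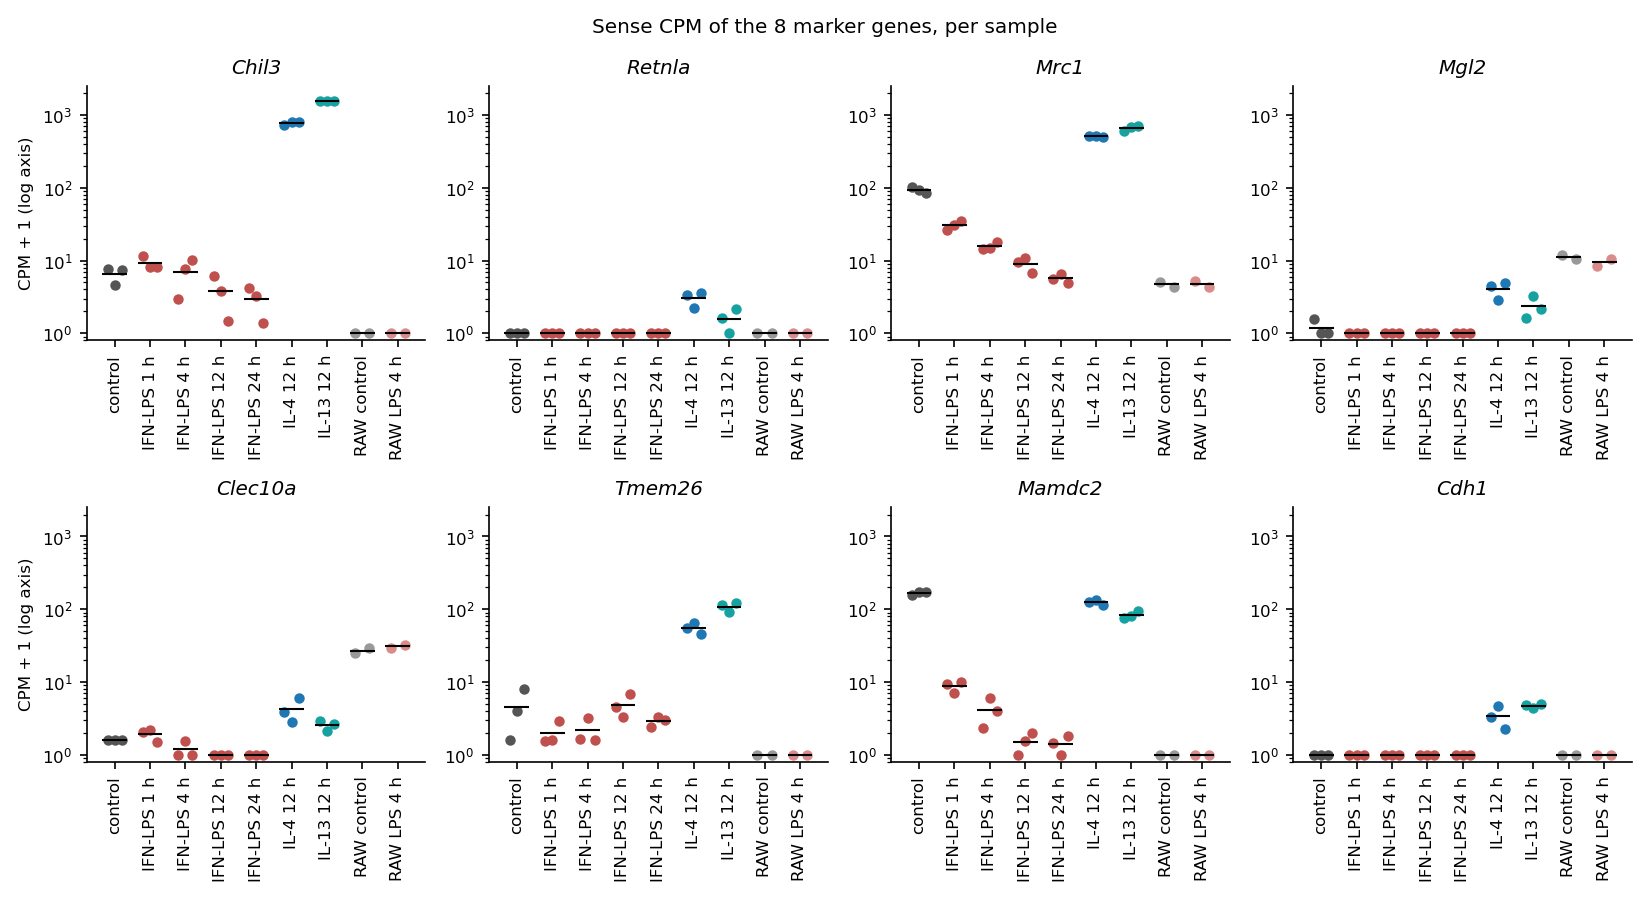
CPM + 1 on a log axis for each of the 8 genes (panels) in the 9 groups (x axis). Points are samples, 3 per BMDM group and 2 per RAW264.7 group, and bars are group means. Chil3 reaches 1531 to 1559 CPM with IL-13, Mamdc2 is highest in the control, and Mgl2 and Clec10a are highest in RAW264.7.

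The other 4 genes were near or below the limit of detection in BMDMs. Retnla, a resistin-like secreted protein that is among the best known markers of alternative activation in tissue, had 4, 2 and 4 counts with IL-4 and 1, 0 and 2 with IL-13, and none in the other 7 groups. The ratio of the IL-13 to the IL-4 group was 0.291 (exact 95% counting interval 0.0514 to 1.13). A level of 0 over the 3 control samples allows up to 3 counts, and IL-4 stood 3.43-fold above that floor, a value with no interval for its own few counts. Retnla lies on chromosome 16 from 48842551 to 48844461 (plus strand, 4 exons) between Retnlb and Retnlg, which were at 0 in all samples; a further relative, Retn, had 1 count in all.

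Cdh1 (chromosome 8, 106603351 to 106670246, plus strand, 16 exons) had 4, 6 and 2 counts with IL-4 and 6, 6 and 7 with IL-13, and 0 in each of the other 19 samples. IL-4 was 4.12-fold and IL-13 6.32-fold above the floor of 3 counts in the control, again with no interval. The ratio of IL-13 to IL-4 was 1.53 (0.707 to 3.46), so that no difference between the cytokines was detectable at this depth. E-cadherin is best known from epithelium, and among the epithelial markers only Krt14 in IL-4 and Krt19 in IL-13 had any counts in the groups that held Cdh1, at group means of 0.193 and 0.188 CPM against 2.42 and 3.74 CPM for Cdh1.

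Mgl2 had 1, 0 and 0 counts in the control, 6, 3 and 6 with IL-4 and 1, 4 and 2 with IL-13. The ratio of IL-4 to control was 15.5 (exact 95% counting interval 2.38 to 651) and that of IL-13 to control 6.99 (0.897 to 315). Clec10a had 1 count in each control sample, 5, 3 and 8 with IL-4 and 3, 2 and 3 with IL-13. The ratios to control were 5.50 (1.57 to 29.4) and 2.66 (0.639 to 15.6). For both lectins the total with IL-13 was below that with IL-4, by ratios of 0.452 (0.156 to 1.18) and 0.484 (0.179 to 1.20), and both intervals hold 1. Counting intervals cover counting error only.

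Of the 8 members, 4 passed the filter on low counts in the fit of control, IL-4 and IL-13. A gene was called with a false discovery rate (FDR) up to 0.01 and a log2 fold change of 0.7 or more in size. Chil3, Mrc1 and Tmem26 were past the cutoffs for higher in both comparisons with the control, against 2.22% of 9252 genes tested with IL-4 and 2.98% with IL-13; Mamdc2 was past the cutoffs for lower with IL-13, against 2.38% of genes. Between IL-13 and IL-4, Chil3 and Tmem26 were past the cutoffs for higher, and these are 2 of the 5 genes (0.0540%) that were. Without replicate 3 of IL-4, the log2 fold change of Tmem26 between the cytokines was 0.85, past the cutoff on size but not that on the FDR. Since these levels chose the members, nothing is read from these counts.

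**Figure D2:**
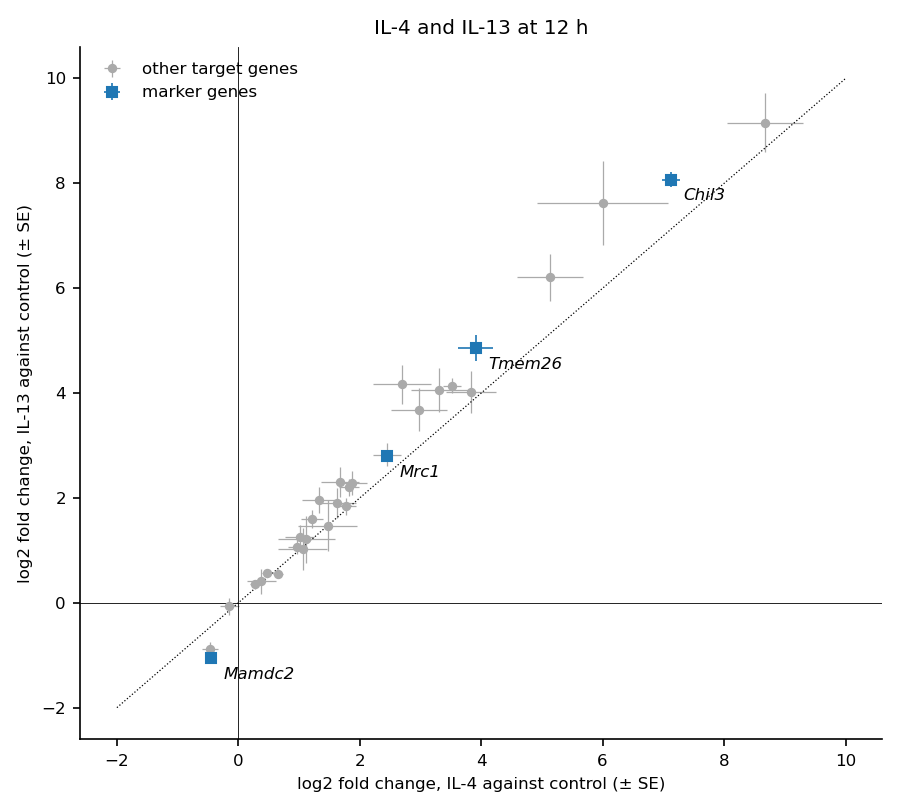
Fitted log2 fold change against control with IL-4 (x axis) and IL-13 (y axis), with standard errors, for the 4 members in the fit (blue squares) and 27 other target genes of IL-4 and IL-13 (grey circles). The dotted line marks equal change; both axes use the same 3 control samples. Chil3 is at 7.12 and 8.07, and Mamdc2 lies below 0 on both axes at -0.45 and -1.05.

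Genes of different length are compared per kilobase of transcript (longest coding transcript in GENCODE M21). In the control, the order was Mamdc2 at 49.1 ± 2.61 CPM per kb, Mrc1 at 17.3 ± 1.55, Chil3 at 3.58 ± 1.09 and Tmem26 at 0.697 ± 0.640. With IL-13 it was Chil3 at 1002 ± 9.49, Mrc1 at 124 ± 10.1, Mamdc2 at 24.3 ± 3.0 and Tmem26 at 21.4 ± 3.22 (mean ± SD, n = 3). The levels of Mamdc2 and Tmem26 with IL-13 lay within the spread of the samples. Retnla, Mgl2, Clec10a and Cdh1 did not exceed a mean of 0.984 CPM per kb with IL-13, in the same libraries.

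The receptor and its signalling genes come next. Of 17 genes listed for this pathway, 12 were tested with IL-4 and IL-13, and 3 rose with each cytokine and none fell; the median log2 fold change was 0.02 with IL-4 and 0.08 with IL-13, against -0.006 and -0.012 over all genes. The 3 were Jak2, one of the kinases of the pathway, and the feedback inhibitors Socs1 and Cish. Socs1 and Cish are also in the list of other target genes below and are counted again there. This list, too, was put together with results of these data known. Jak2 was at 66.4 CPM in the control; IL-4 samples held 152 CPM (log2 fold change 1.19, SE 0.113, adjusted p = 3.90e-12) and IL-13 samples 219 CPM (1.68, SE 0.109, adjusted p = 2.41e-18). Socs1 had 8 counts in the control, 64 with IL-4 and 110 with IL-13 (log2 fold change 2.98 and 3.68, and 3.77 and 4.47 without replicate 2 of the control). Cish had 0, 23 and 76. The receptor chains Il4ra (118, 103 and 112 CPM in the control, with IL-4 and with IL-13) and Il13ra1 (45.3, 34.1 and 33.2 CPM), and Stat6 (292, 320 and 300 CPM), were not called in either comparison. Transcripts of the ligands Il4 and Il13 were at 0 in all 25 samples.

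Other known target genes of IL-4 and IL-13, 40 by list, give a wider view of the same samples. Of the 27 tested, 18 rose and none fell with IL-4, and 18 rose and 1 fell with IL-13, with a median log2 fold change of 1.63 and 1.90. The list was put together with results of these data known, so its direction is not independent evidence. Arg1, the arginine-degrading enzyme of alternatively activated macrophages, had 0 counts in the 3 control samples, 148 with IL-4 and 220 with IL-13. Pdcd1lg2, which encodes the checkpoint ligand PD-L2, had 2, 81 and 181 counts. Irf4, a transcription factor, had 7, 46 and 137, with log2 fold changes of 2.69 and 4.17 (3.29 and 4.77 without replicate 1 of the control), and Batf3 rose to 21.4 CPM with IL-13 from 1.18 in the control. Msr1, a scavenger receptor, was the 1 that fell with IL-13 (log2 fold change -0.88, SE 0.137, adjusted p = 1.47e-06). Between IL-13 and IL-4, 2 of the 27 rose, Irf4 (1.49, SE 0.249, adjusted p = 4.10e-04) and Pdcd1lg2 (1.08, SE 0.211, adjusted p = 0.00560), and the median of the list was 0.28 against -0.004 over all genes. For Arg1 the difference between the cytokines was 0.49 (SE 0.173, adjusted p = 0.425).

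The comparisons of IFN-LPS with the control use the same 3 control samples. Here the cutoff on the size of the log2 fold change was 1.5, with the same FDR. Of the 8 members, 3 passed the filter on low counts. Mamdc2 was past the cutoffs for lower at all 4 times, Mrc1 at 4, 12 and 24 h, and Chil3 at none. At 1 h this was 1 member, against 2.08% of 9568 genes; at 4, 12 and 24 h it was 2 members, against 11.4%, 8.42% and 6.93%. The members were chosen with these levels known too, so nothing is read from these counts.

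Mamdc2 had 16, 10 and 19 counts at 1 h, 2, 9 and 5 at 4 h, 0, 1 and 2 at 12 h and 1, 0 and 2 at 24 h, after 265 to 295 in the control. At 1 h its level was 7.86 ± 1.60 CPM against 168 ± 8.90 in the control (log2 fold change -4.20, SE 0.188). Ranked by the size of the difference among the genes called lower, it was the third of 199 at 1 h, number 37 of 1094 at 4 h, the third of 806 at 12 h and the second of 663 at 24 h. The log2 fold change was -5.15 (SE 0.235) at 4 h, -7.87 (SE 0.301) at 12 h and -8.16 (SE 0.292) at 24 h. The last 2 values rest on 3 counts per group (-8.68 without replicate 3 at 12 h and -8.89 without replicate 3 at 24 h), and the group total at 24 h was 0.00261 of the control (exact 95% counting interval 5.37e-04 to 0.00765). None of the samples with IFN-LPS overlapped with the control.

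Mrc1 differed by smaller steps. It had 48, 50 and 71 counts at 1 h, 20, 25 and 28 at 4 h, 17, 17 and 12 at 12 h and 10, 12 and 10 at 24 h. The levels went from 92.8 CPM in the control to 29.8, 14.7, 8.06 and 4.71 CPM, and no time point overlapped with the next. At 1 h the log2 fold change was -1.44 (SE 0.149), short of the cutoff on size, and without replicate 3 of the 1 h group it was -1.53, past it. At 4, 12 and 24 h the log2 fold changes were -2.13 (SE 0.177), -3.22 (SE 0.191) and -4.07 (SE 0.202). In the same ranking Mrc1 was number 580 of 1094 at 4 h, 158 of 806 at 12 h and 62 of 663 at 24 h.

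Chil3 had few counts throughout. It had 20, 12 and 15 at 1 h, 3, 12 and 15 at 4 h, 10, 5 and 1 at 12 h and 7, 5 and 1 at 24 h, beside 11, 6 and 11 in the control. The log2 fold changes against the control were 0.78 (SE 0.430), 0.65 (SE 0.475), -0.67 (SE 0.545) and -1.28 (SE 0.566). The 1 h and 24 h groups did not overlap with the control, the 4 h and 12 h groups did, and the means lay on opposite sides of it.

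**Figure D3:**
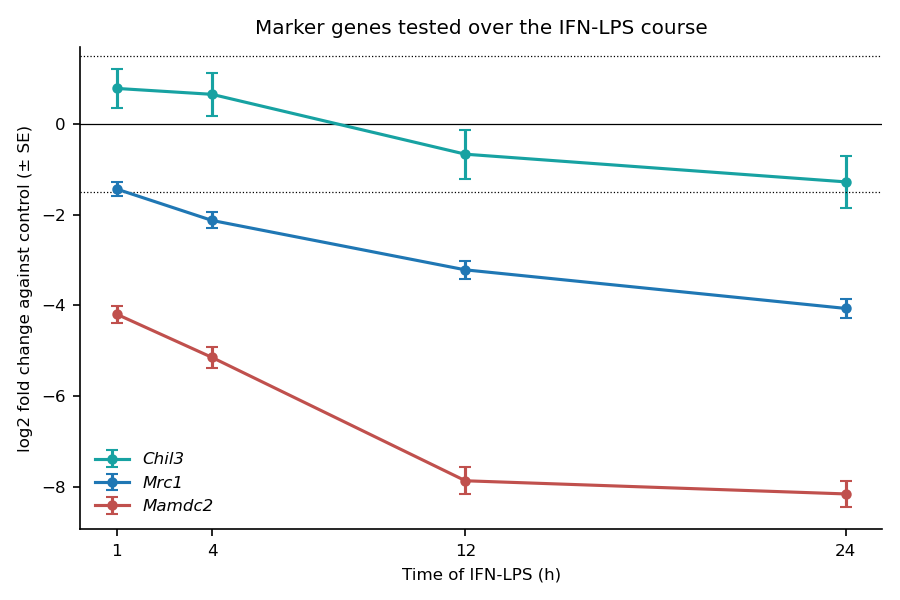
Fitted log2 fold change against control (y axis, ± SE) over the time of IFN-LPS in hours (x axis) for the 3 members in the fit. Dotted lines mark the cutoff of 1.5 in size. Mamdc2 is at -4.20 at 1 h, Mrc1 reaches -4.07 at 24 h, and the points of Chil3 lie between the dotted lines.

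From 4 h to 24 h of IFN-LPS, a comparison without the control, all 3 members in the fit were past the cutoffs for lower, against 6.88% of 9568 genes, and nothing is read from this count either. The log2 fold change was -1.95 for Mrc1 (SE 0.284), -3.01 for Mamdc2 (SE 0.708) and -1.93 for Chil3 (SE 0.554). Mamdc2 was not past the cutoff on the FDR without replicate 2 of the 4 h group (-2.48), and without replicate 3 of the 24 h group its value was -3.75. Chil3 was not past the cutoff on the FDR without replicate 2 (-1.85) or replicate 3 (-1.54) of the 4 h group. Without replicate 3 of the 24 h group (-1.40) it was past neither the cutoff on the FDR nor that on size. The 24 h libraries are among those with a low share of antisense Rn45s counts, and its part in this difference was not tested.

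The other 5 members were too low to enter the fit with IFN-LPS. Tmem26 had 1 to 12 counts in the control, 1, 1 and 4 at 1 h, 1, 4 and 1 at 4 h, 7, 4 and 12 at 12 h and 3, 5 and 5 at 24 h, and all of these groups overlapped with the control. Retnla, Mgl2 and Cdh1 were at 0 in all 12 samples with IFN-LPS. Clec10a had 5 counts at 1 h, 1 at 4 h and none at 12 and 24 h, against 3 in the control.

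Markers of other cell types also differed in level over this course. Of 10 markers of eosinophils, basophils and mast cells, the summed level was 20.8 to 31.6 CPM in the control, 20.1 to 35.2 with IL-4, 25.1 to 35.3 with IL-13 and 0.460 to 2.76 at 24 h of IFN-LPS. In the control it came from Siglecf, Ccr3 and a trace of Prg2. Of the mast cell and basophil markers, Ms4a2, Fcer1a, Tpsb2 and Cma1 were at 0 in every sample. Mcpt8 was at 0 in the control, 0.331 CPM at 12 h and 0.417 CPM at 24 h of IFN-LPS. Cpa3 was at 0 in the control, 0.193 CPM with IL-4 and 0.214 CPM with IL-13. The sum of 10 T and B cell markers, mainly Cd4, was 9.90 to 14.3 CPM in the control and 2.37 to 3.22 at 24 h, with Cd3e, Cd3d and Cd3g at 0 throughout. Neutrophil markers summed to 25.6 to 37.8 CPM in the control and 23.5 to 26.5 at 24 h, with members on either side: the group mean of S100a8 was 9.22 CPM in the control and 17.2 CPM at 24 h, while Mmp8 was at 9.64 and 2.85 CPM, S100a9 at 4.33 and 0.858 CPM, and Ngp at 4.72 and 0 CPM. Dendritic cell markers summed to 2.33 to 5.36 CPM in the control and to 15.6 to 51.0 with IFN-LPS. At 1 h the sum was mostly Clec9a (47.7 CPM, against 0.393 in the control and 0.153 at 24 h). At 24 h it was mostly Ccr7 (17.8 CPM, against 0 in the control). Btla was at 0 in the control and 3.63 CPM at 12 h, and Dpp4 at 0 and 1.20 CPM. Kit went the other way, with 3.16 CPM in the control and 0.177 CPM at 1 h. Flt3 and Siglech were at 0 in the control and at all 4 times, and Cd209a, Zbtb46 and Xcr1 did not exceed a mean of 1.17 CPM there. The sum of 8 fibroblast markers was 85.2 to 123 CPM in the control. With IFN-LPS its range was 59.8 to 77.1 CPM (1 h), 67.9 to 109 CPM (4 h), 60.6 to 82.3 CPM (12 h) and 75.8 to 97.7 CPM (24 h), and in RAW264.7 it was 0. In this list Col1a2 was at 49.8 CPM in the control and 25.5 at 24 h, and Pdgfrb at 4.52 and 14.2. The part of these markers' cells in the lower levels of Mamdc2 and Mrc1 was not tested.

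Genes of classical activation and other target genes are given for the same samples. Of 24 genes of classical activation, all tested, 23 rose at 4 h and 22 at 12 and 24 h, against 11.4%, 8.87% and 7.93% of the 9568 genes, Nos2 from 0 counts in the control to 2285 at 12 h and Il12b from 2 to 25936. The target genes of IL-4 and IL-13 did not move as 1 group: of 26 tested at 12 h of IFN-LPS, 11 rose and 8 fell, and the median log2 fold change was 0.61 against -0.030 over all genes. Pparg, a lipid-sensing nuclear receptor (log2 fold change -5.07, SE 0.357, adjusted p = 3.37e-17), the growth response factor Egr2 (-3.68, SE 0.376, adjusted p = 7.32e-12) and the elastase Mmp12 (-3.61, SE 0.123, adjusted p = 1.69e-29) were among those that fell. Slc7a2, an arginine transporter, rose to 3666 CPM from 17.7 in the control, and with IL-13 it rose to 323 CPM. Il1rn, which encodes the IL-1 receptor antagonist, rose to 4343 CPM from 14.4. Of the pathway genes, 6 of 14 rose at 12 h, with a median of 1.34, among them Jak2 (3.91, SE 0.106, adjusted p = 1.55e-33), Socs1 (5.88, SE 0.297, adjusted p = 6.39e-22) and Socs3 (8.57, SE 0.236, adjusted p = 2.85e-33), and Irs2 fell (-3.04, SE 0.356, adjusted p = 4.52e-08).

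Of 22 genes listed as relatives of the members, 13 of the 21 in the files had fewer than 10 counts over all 25 samples, and 3 were tested in each BMDM fit. Ly75, which encodes DEC-205 of the mannose receptor family, rose at 24 h of IFN-LPS, from 41 counts in the control to 314 (log2 fold change 2.72, SE 0.278, adjusted p = 7.57e-10), while its relative Mrc1 was lower than in the control. With IL-4 and IL-13 none of the 3 was called: Ly75 had 31 and 30 counts, and the cadherin Cdh11 had 43 and 55 against 78 in the control. Asgr1 and Asgr2, lectins related to Mgl2 and Clec10a, had 2 and 13 counts over all samples.

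Of 12 listed partners and repressors of E-cadherin, the catenins Ctnnb1, Ctnna1 and Ctnnd1 and the repressor Zeb2 were counted in groups with and without Cdh1, while its receptors Klrg1 and Itgae had 0 and 6 counts in all, and Jup, Snai1, Snai2 and Twist1 were at 0 in RAW264.7. β-catenin (Ctnnb1), which binds the inner end of E-cadherin, was at 1343 CPM in the control, 2088 with IL-4 (log2 fold change 0.63, SE 0.0756, adjusted p = 3.38e-09) and 2127 with IL-13 (0.62, SE 0.0756, adjusted p = 3.40e-09), short of the cutoff of 0.7. None of the 5 partners tested was called with either cytokine. Zeb2, which represses E-cadherin in epithelial cells, was at 921, 961 and 1080 CPM in the control, with IL-4 and with IL-13, and Zeb1 had 20, 18 and 25 counts. Zeb1 rose at 12 h of IFN-LPS to 134 counts (2.84, SE 0.317, adjusted p = 9.21e-11), where Cdh1 was at 0, as it was in the control.

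RAW264.7 cells had a different set of these genes. Chil3, Retnla, Tmem26, Mamdc2 and Cdh1 were at 0 in all 4 samples, and Mrc1 had 9 and 7 counts in the control and 9 and 8 with LPS. Mgl2 had 24 and 20 counts in RAW264.7 control cells and 16 and 23 with LPS. Clec10a had 52 and 60, and 62 and 75. These were the highest levels of both lectins in the 9 groups, and the lowest RAW264.7 sample lay above the highest BMDM sample for each.

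Per group total, Mgl2 was 51.8 times (exact 95% counting interval 8.82 to 2091) and Clec10a 43.9 times (14.7 to 216) as high in RAW264.7 control cells as in control BMDMs, while Mrc1 was at 0.0400 of the BMDM level (0.0227 to 0.0656). Mamdc2 was 241-fold lower when the RAW264.7 control group is set at the floor of 3 counts. These ratios set a cell line against primary cells from a separate culture, medium and set of libraries, which cannot be told apart. Mgl2 and Clec10a share 89 windows of 101 bases, 5.80% of those of Mgl2 and 3.99% of those of Clec10a, so most of their reads can be told apart; they are neighbours on chromosome 11, from 70130329 to 70137550 and from 70156197 to 70170834. Per kilobase of transcript, Clec10a was at 11.1 ± 1.28 and Mgl2 at 6.23 ± 0.715 CPM per kb in RAW264.7 control cells (mean ± SD, n = 2). With LPS for 4 h, with a cutoff of 2 on the log2 fold change, neither was past it, against 3.22% of 9406 genes: Mgl2 differed by -0.07 (SE 0.337) and Clec10a by 0.39 (SE 0.198).

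**Figure D4:**
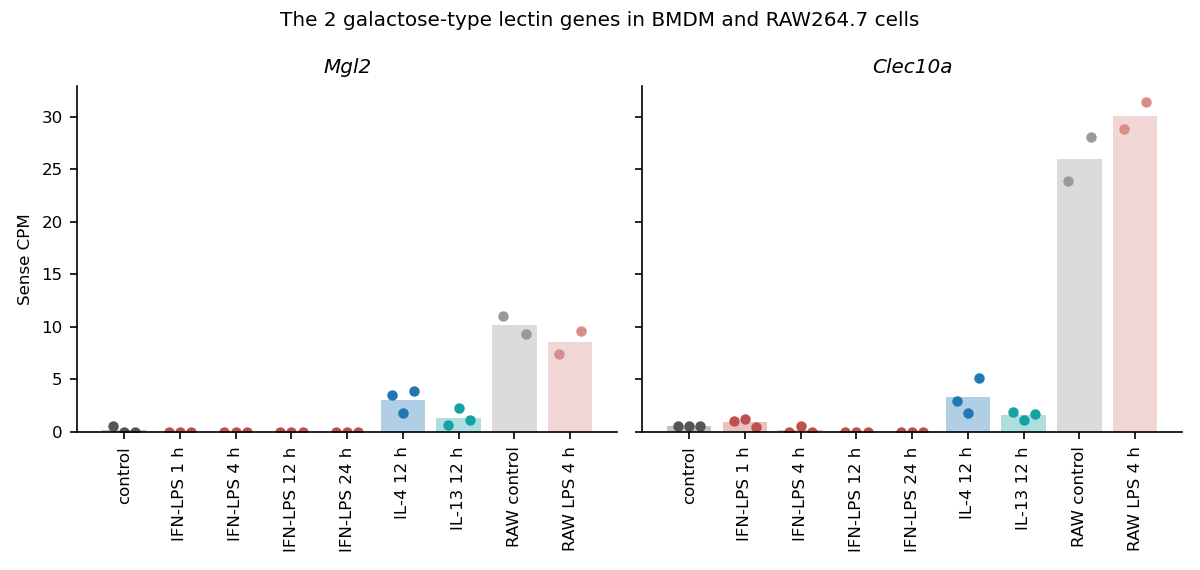
CPM (y axis from 0) of Mgl2 and Clec10a in the 9 groups (x axis). Bars are group means and points are samples. The RAW264.7 samples lie at 7.43 CPM or more for Mgl2 and 23.9 CPM or more for Clec10a, above every BMDM sample.

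The genes whose pattern was most like that of a member were named by the Pearson correlation of log2(CPM + 1) over the 21 BMDM samples, among 10040 genes. The samples share groups and libraries, so these values are descriptions. Chil3 was most like Ablim1 (r = 0.973), which had 0.591 CPM in the control, 16.4 with IL-4 and 18.5 with IL-13, and Inpp5a (r = 0.952). Mrc1 was most like Cblb (r = 0.988), at 155, 323 and 343 CPM in these groups and 57.3 at 24 h of IFN-LPS, and Il6st (r = 0.986). Tmem26 was most like Sh3glb1 (r = 0.965) and Arg1 (r = 0.955). Mamdc2 was most like Colec12 (r = 0.979), at 75.6 CPM in the control, 65.4 with IL-4, 66.5 with IL-13 and 9.13 at 24 h of IFN-LPS, and Aplp2 (r = 0.977). For Mrc1, 214 genes reached a correlation of 0.9 and for Mamdc2 333, against 25 for Chil3 and 17 for Tmem26. In RAW264.7, Colec12 was at 549 CPM where Mamdc2 was at 0. By Spearman rank correlation, the places of the named genes among the 10040 differed. They were 443 for Ablim1 and 7 for Inpp5a (Chil3), and 26 for Cblb and 13 for Il6st (Mrc1). For Tmem26 they were 4 for Sh3glb1 and 52 for Arg1, and for Mamdc2 55 for Colec12 and 364 for Aplp2. Cdh1, Retnla, Mgl2 and Clec10a have too few counts for such a reading.

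The members themselves differed in how they varied together. Over the same 21 samples, r was 0.920 between Chil3 and Mrc1 and 0.915 between Chil3 and Tmem26, but 0.615 between Tmem26 and Mamdc2. Mamdc2 and Mrc1, both lower with IFN-LPS than in the control, had r = 0.903, while with IL-4 and IL-13 their levels moved to opposite sides of the control.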

How the data were processed

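RNA of BMDMs and RAW264.7 cells was depleted of rRNA and sequenced from a stranded library as paired reads, per the labels' protocol, while the molecule field of the labels gives polyA RNA. Reads were trimmed by the authors (Trimmomatic 0.33) and aligned to mm10 (STAR 2.5.1), and they deposited, per sample, whole-number read counts per gene symbol for both strands together and for each strand, not normalized. The annotation release was not given in the sources used here. The sense column was used, without Rn45s.

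Counts were fitted with edgeR 4.0.16 in R 4.3.3 (TMM normalization, filterByExpr, robust quasi-likelihood test, Benjamini-Hochberg adjustment over all genes tested), in 3 fits: control and IFN-LPS, control with IL-4 and IL-13, and RAW264.7. Every adjusted p is from these fits, with 3 (RAW264.7, 2) samples per group. It sets a difference between groups against the spread within groups, which is estimated over all groups of a fit and drawn towards that of other genes. CPM are not TMM-scaled, so their ratios differ from fitted changes. Ratios of genes with few counts are of group totals, with exact binomial intervals at 95%, and the floor for a group at 0 was 3 counts over the group. Ratios to the floor take the counts of the other group as exact and have no interval.

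The members and lists were chosen with earlier results of these data known. Genes named beside the members are the 2 most correlated per member (mean of 5 CPM or more in at least 1 BMDM group), up to 6 per list with the largest changes called, with any going against the list, and any pathway gene, relative or E-cadherin partner that passed the filter. The scripts were tested on simulated data. Alternatives were DESeq2 1.42.0, other filters, unstranded counts, Rn45s kept, 1 fit of all BMDMs, a replicate block and leaving out each sample. Gene positions are from GENCODE M21, and protein sequences were not used here. BMDMs given only LPS were not analysed here.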

Additional observations from a re-analysis of the deposited data

Results flagged for a closer look

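Counts on the opposite strand, which the comparisons do not use, were above both the level of the control samples and the floor of 3 counts for 2 of the members. Chil3 had 5 antisense counts over the 3 IL-13 samples, which is 0.0637% of its counts on both strands (exact 95% interval 0.0207% to 0.149%). The control had 0 antisense beside only 28 sense counts, and its interval, 0% to 12.3%, holds that share. Mrc1 had 7 antisense counts with IL-4 and 10 with IL-13, against 2 in the control. Its antisense share was 0.279% (0.112% to 0.573%), 0.294% (0.141% to 0.540%) and 0.423% (0.0512% to 1.52%) in these 3 groups, and the intervals overlap. At or under the floor, and with 0 in the control, were Retnla with 2 antisense and 0 sense counts at 12 h of IFN-LPS, Tmem26 with 1 at 24 h and Mgl2 with 1 in RAW264.7 with LPS. Sense counts exceeded antisense counts by 93.9 to 158 times over all genes of a library.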

How the results depend on the processing

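No result reversed under any alternative. Requiring at least 10 counts in every sample, which leaves fewer genes, moved the number of genes called to 274, 960, 751 and 640 at 1, 4, 12 and 24 h of IFN-LPS, 507 between 24 h and 4 h and 138 in RAW264.7 with LPS (681, 2180, 1655, 1422, 1318 and 303 as reported). It left 1 member called at 4, 12 and 24 h and between 24 h and 4 h, 1 with IL-4, 2 with IL-13 and 0 between IL-13 and IL-4, where 1 gene was called. Under this filter 163 genes rose and 136 fell with IL-4, and 228 rose and 190 fell with IL-13. The genes with 10 counts in every sample were 6458 in the IFN-LPS fit, 7929 in the IL-4 and IL-13 fit and 8551 in RAW264.7. DESeq2 called 3 genes between IL-13 and IL-4, 2 higher and 1 lower, where edgeR called 5 and 1. With each sample left out in turn, members called ranged from 1 to 2 at 1 h, where genes called ranged from 663 to 699. Between 24 h and 4 h they ranged from 1 to 3, with 1285 to 1323 genes called. Between IL-13 and IL-4 they ranged from 1 to 3, where genes called ranged from 2 to 9, and 2 genes were called without IL-4 replicate 3. The deviations of same-numbered samples correlated at 0.039 on average over 30 pairs of the IFN-LPS course (-0.115 to 0.289). Those of differently numbered samples correlated at -0.0198 on average. In the IL-4 and IL-13 fit the averages were 0.016 over 9 pairs and -0.00817. Such weak correlations cannot show whether same-numbered samples share an animal or a preparation. With a replicate block, 687, 2186, 1661 and 1426 genes were called over the course, 1322 between 24 h and 4 h, 352 with IL-4, 498 with IL-13, 6 between them and 302 in RAW264.7, and the counts of members were as reported. Of 243 fold changes of members compared under the alternatives, 237 kept their side of the cutoffs, 3 fell short of them and 3 went past them. This count does not hold every fit with a sample left out, and further crossings occurred in those fits. Since these levels chose the members, nothing is read from it or from the counts of members called under the alternatives. Of 138 mean CPM of members, 43 moved by more than 1 SD with TMM scaling or with Rn45s in the total, and of 32 correlations 15 moved with ranks or group means. Depth limits Retnla, Mgl2, Clec10a and Cdh1 in BMDMs, which did not pass the filter on low counts there.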
